A study of Mus musculus with 6 samples.

Results

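ATP-binding cassette (ABC) genes encode membrane pumps that use ATP to carry lipids, bile components, drugs and conjugates across membranes, together with a few soluble relatives that act on ribosomes. The members described here are the protein-coding genes of the deposited table whose symbols follow the family pattern Abca to Abcg plus a number and, in some, a letter. The pattern found 50 of the 22046 protein-coding genes, with 16 in subfamily A, 10 in B, 10 in C, 4 in D, 1 in E, 3 in F and 6 in G. Members with other symbols, such as Tap1, Tap2 and Cftr, are outside it.

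The study profiled liver RNA in 2 groups of 3 libraries each, in mouse. The HKO_HFD libraries (HKO) came from mice lacking G3bp1 in hepatocytes, and the Flox_HFD libraries (Flox) from floxed mice of the same litters. Animals of both groups ate high-fat food for 12 weeks, starting at 6 weeks of age. Other liver cells keep G3bp1 in this design, and which Cre line was used is not given in the labels. The study asked how this RNA-binding protein of stress granules bears on steatohepatitis. Nothing in the labels ties libraries to separate animals, so p-values here reflect only the scatter among libraries of a group, possibly a technical one.

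In the liver, ABC pumps of the canalicular membrane make bile. They export bile salts, phosphatidylcholine, sterols and organic anion conjugates from the hepatocyte, while others on the blood side load lipid onto HDL or return conjugates to blood. Most members of subfamily D import fatty acyl-CoA into peroxisomes, and several short B members sit in the inner mitochondrial membrane. E and F members have no membrane part and act in translation. The nuclear receptors LXR, FXR, PXR and CAR are known to control several of these genes.

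Reads assigned to genes were 16499832 to 17954066 in HKO and 15804115 to 16331199 in Flox libraries. G3bp1 stood at 4.66, 4.27 and 4.44 FPKM in HKO livers, against 8.46, 8.46 and 9.10 FPKM in Flox livers, and so matched every label (log2 difference -0.83, SE 0.0879, adjusted p = 0.110 in limma). FPKM are reads scaled by the length of a gene and by a library size, and each difference is the HKO mean less the Flox mean of log2(FPKM + 1). Hepatocyte markers were abundant in every library, at 42031 to 50916 summed FPKM in HKO and 48178 to 50160 in Flox. The libraries HKO 2, HKO 3 and Flox 3 lay on one side of the first principal component (13.8 to 14.5) and HKO 1, Flox 1 and Flox 2 on the other (-23.5 to -3.96), so that component, with 33.6% of the variance, did not follow the groups. Because this is bulk tissue, fewer cells of a type and less RNA per cell cannot be told apart.

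None of the ABC genes passed the test between HKO and Flox. Of the 50 members 34 reached the filter of 0.5 FPKM in at least 3 libraries, and 0 of these 34 had an adjusted p under 0.05 (limma on log2(FPKM + 1) with Benjamini-Hochberg adjustment over all 11856 genes tested), beside 0.00843% of all genes. The smallest adjusted p among members was 0.648. Without adjustment 3 members had p under 0.05, or 8.82%, beside 7.62% of all genes. These were Abca2 and Abcg3, higher in HKO like 3.08% of all genes, and Abcc6, lower in HKO like 4.55%. With limma's voom on recovered reads 0 members passed after adjustment, beside 0.0253% of all genes, and 2 were under 0.05 unadjusted, beside 7.75%. HKO and Flox libraries did not overlap in the same 3 members, 2 above and 1 below, again 8.82% beside 13.3% of all genes. The fitted difference was above 0 in 19 members and below 0 in 15 (44.1% below, beside 51.2% of all genes). That split depends on the scaling: TPM, which moves the median of all genes by 0.15, gave 30 above and 4 below (19 and 15 relative to that shift), and scaling by assigned reads 25 and 9. The median log2 difference, HKO minus Flox, was 0.02 over the members and -0.01 over all genes tested. All fitted differences lay between -0.32 and 0.33.

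**Figure D1:**
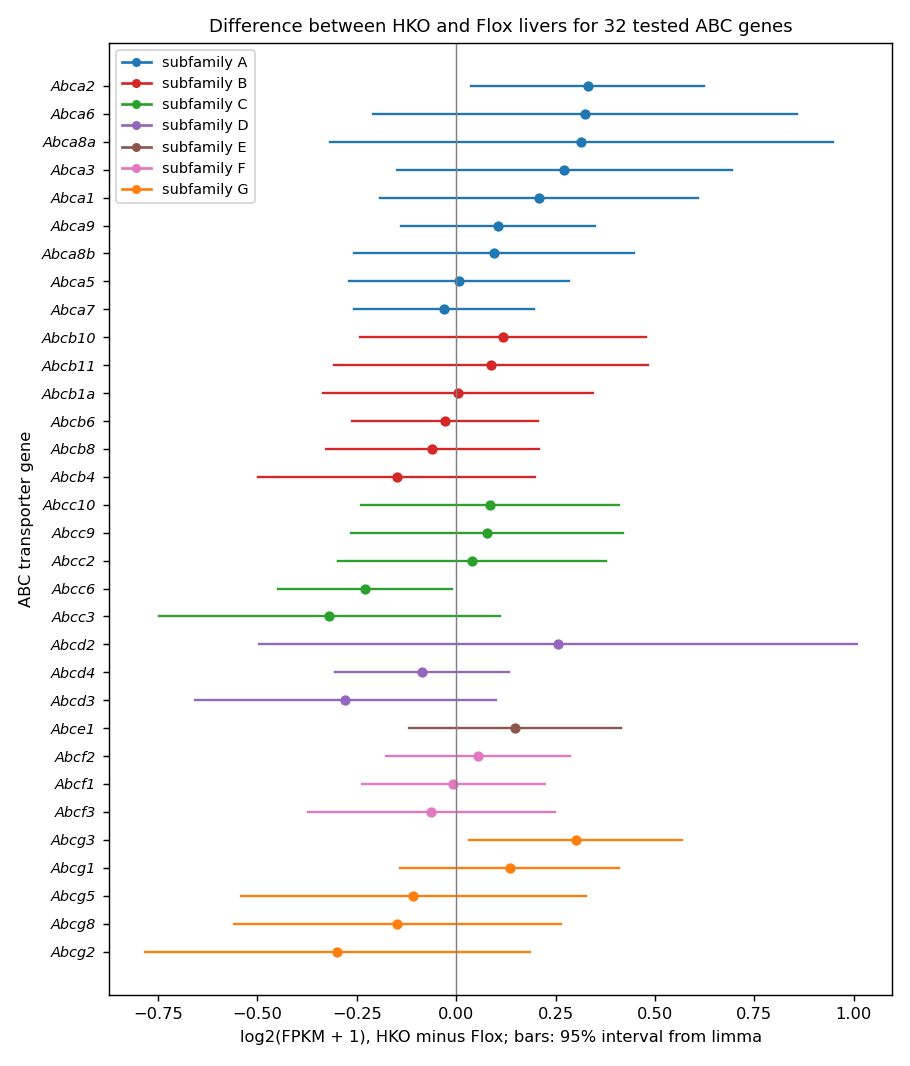
Log2 difference of FPKM + 1, HKO minus Flox (horizontal axis), for 32 of the 34 tested ABC genes (vertical axis), coloured by subfamily, with points for the limma estimate and bars for its 95% interval. The intervals of Abca2, Abcg3 and Abcc6 leave out 0 before any adjustment, and those of the other members shown hold it.

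Sequence of the start regions is shown first for the Abcg5 and Abcg8 pair, because both genes ranked the libraries alike at the ends, lowest in HKO 1 and highest in HKO 3, and then for the most abundant member and for the 2 members whose HKO libraries all lay above the Flox libraries. Windows run from 250 bases before to 50 after a RefSeq gene start on GRCm38.p6, and 38 of the 50 members had such a window, 45 windows in all. Abcg5 and Abcg8 are transcribed away from each other on chromosome 17, with the start of Abcg5 at 84683011 and a start of Abcg8 at 84683121, 110 bases further on. Their windows share 209 bases, given in capitals in each strand's own reading.
Abcg8, chr17:84682871-84683170, plus strand: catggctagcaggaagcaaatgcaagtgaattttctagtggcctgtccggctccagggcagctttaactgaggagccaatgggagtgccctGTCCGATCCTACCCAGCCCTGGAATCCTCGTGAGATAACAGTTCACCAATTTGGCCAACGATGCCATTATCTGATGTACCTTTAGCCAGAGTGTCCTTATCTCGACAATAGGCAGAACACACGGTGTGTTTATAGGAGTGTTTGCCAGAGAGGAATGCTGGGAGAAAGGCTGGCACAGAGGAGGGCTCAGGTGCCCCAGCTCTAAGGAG
Abcg5, chr17:84682962-84683261, minus strand: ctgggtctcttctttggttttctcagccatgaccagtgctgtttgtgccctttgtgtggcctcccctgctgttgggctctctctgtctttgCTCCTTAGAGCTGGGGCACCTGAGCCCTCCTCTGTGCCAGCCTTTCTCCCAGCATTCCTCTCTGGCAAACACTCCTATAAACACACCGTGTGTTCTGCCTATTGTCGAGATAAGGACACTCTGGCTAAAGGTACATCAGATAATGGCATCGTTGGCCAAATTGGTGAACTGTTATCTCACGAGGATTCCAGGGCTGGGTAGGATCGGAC

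In the next windows capitals mark the motifs found on either strand. The nuclear receptor hexamer AGGTCA occurs in the window of Abcb11, and the GC box GGGCGG in those of Abca2 and Abcg3.
Abcb11, chr2:69342567-69342866, minus strand: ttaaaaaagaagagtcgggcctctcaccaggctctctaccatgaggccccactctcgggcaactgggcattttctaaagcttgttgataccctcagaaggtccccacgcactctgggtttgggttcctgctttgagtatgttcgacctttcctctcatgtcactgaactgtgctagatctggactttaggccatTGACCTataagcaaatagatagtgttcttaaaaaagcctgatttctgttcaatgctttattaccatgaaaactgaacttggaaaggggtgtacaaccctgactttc
Abca2, chr2:25428349-25428648, plus strand: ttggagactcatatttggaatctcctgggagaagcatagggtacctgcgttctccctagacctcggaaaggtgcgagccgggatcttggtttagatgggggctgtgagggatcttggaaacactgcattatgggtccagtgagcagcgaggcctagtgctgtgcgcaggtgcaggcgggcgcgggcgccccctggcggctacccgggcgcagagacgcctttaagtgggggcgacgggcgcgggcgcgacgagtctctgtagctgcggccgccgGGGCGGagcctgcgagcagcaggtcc
Abcg3, chr5:104982668-104982967, minus strand: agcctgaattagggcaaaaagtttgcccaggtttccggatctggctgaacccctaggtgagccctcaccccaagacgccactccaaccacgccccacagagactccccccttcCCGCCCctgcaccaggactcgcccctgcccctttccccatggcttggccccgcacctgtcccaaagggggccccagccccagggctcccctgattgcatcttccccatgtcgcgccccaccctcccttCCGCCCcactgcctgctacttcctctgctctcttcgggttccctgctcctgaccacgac

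Both motifs also occur in many windows of other genes. AGGTCA was found in 7 of 45 member windows (15.6%) and in 16.3% of 32851 windows of all genes, and GGGCGG in 21 (46.7%) and in 35.7%. Exact direct repeats of AGGTCA spaced by 4 bases, known for LXR, were in 0 of the 45 windows and 0.0152% of all windows. Exact inverted repeats spaced by 1 base, known for FXR, were in 0 of the 45 windows and 0.00913% of all windows. Exact copies are too rare for 0 of 45 windows to say anything of the members, and altered copies were not searched. The core TGACNNNGC of antioxidant response elements was found in 7 (15.6%) and in 12.4%. The motifs were searched on both strands, and the hexamer is also a part of both repeats.

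A few members held most of the family's summed level in these livers. The 6 most abundant members, Abcb11, Abcd3, Abcc2, Abcg5, Abcg8 and Abca6, made up 58.3% of the summed FPKM of all 50. Over the 6 libraries 16 members averaged at least 10 FPKM, 11 lay between 1 and 10, and 23 lay below 1. Subfamily B held 28.5% of the summed level, C 19.1%, A and G 14.7% each, D 14.5%, F 6.48% and E 1.90%. The sum over the family was 556, 686 and 689 FPKM in HKO 1, 2 and 3, against 637, 632 and 682 FPKM in Flox 1, 2 and 3. HKO 1 was the lowest of all libraries, and the groups overlapped, with means of 643 ± 75.6 and 650.1 ± 27.3 FPKM in HKO and Flox (SD, n = 3 each, exact permutation p = 1, two-sided).

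**Figure D2:**
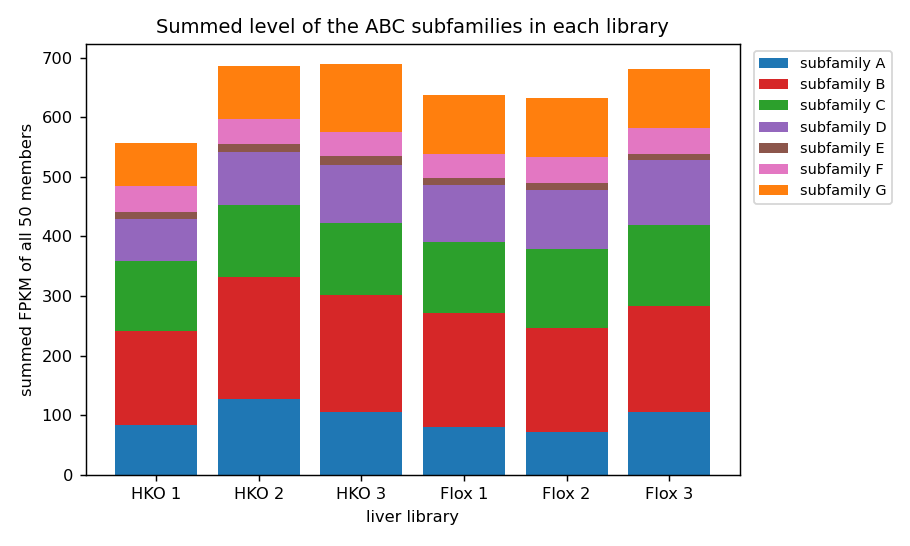
Summed FPKM of all 50 ABC genes (vertical axis) in each liver library (horizontal axis), stacked by subfamily. HKO 1 has the lowest sum, 556 FPKM, and the other 5 libraries lie between 632 and 689.

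The most abundant member was a canalicular exporter. Abcb11, the bile salt export pump (ENSMUSG00000027048, chromosome 2, 69238282 to 69342616, minus strand, GRCm38), stood at 103, 144 and 138 FPKM in HKO livers, against 132, 105 and 122 FPKM in Flox livers. The ranges of both groups overlapped, and the log2 difference was 0.09 (SE 0.168, adjusted p = 0.886 in limma), with a 95% interval of -0.31 to 0.48. Abcc2, which exports conjugated bilirubin and glutathione conjugates (chromosome 19, 43782192 to 43840740, plus strand), stood at 48.3, 64.3 and 61.6 FPKM in HKO, against 52.9, 53.8 and 61.8 FPKM in Flox. HKO 1 was the lowest library for both genes and HKO 2 the highest. The log2 difference of Abcc2 was 0.04, with an interval of -0.30 to 0.38.

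Abcb4, which moves phosphatidylcholine into bile (chromosome 5, 8893717 to 8959231, plus strand), stood at 31.1, 30.7 and 30.6 FPKM in HKO, against 33.4, 42.1 and 28.7 FPKM in Flox. The HKO libraries were nearly equal and lay inside the Flox range, with a log2 difference of -0.15 (interval -0.50 to 0.20) that was -0.0053 without Flox 2 and -0.28 without Flox 3. Under TPM it was 0.025, or -0.12 relative to the shift. Abcg2, an exporter of drugs, urate and porphyrins (chromosome 6, 58584523 to 58695676, plus strand), stood at 8.28, 10.6 and 12.4 FPKM in HKO, against 13.9, 15.9 and 9.67 FPKM in Flox. Its log2 difference of -0.30 (SE 0.206, adjusted p = 0.717 in limma) was -0.49 without Flox 3 and -0.16 without either HKO 1 or Flox 2. Flox 3 lay inside the HKO range and the other Flox libraries above it.

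Abcg5 and Abcg8 encode the 2 partners of the dimer that exports cholesterol and plant sterols into bile. Abcg5 (chromosome 17, 84658234 to 84683011, minus strand) stood at 30.0, 38.4 and 50.8 FPKM in HKO, against 41.5, 41.1 and 43.2 FPKM in Flox. Abcg8 (chromosome 17, 84676302 to 84700333, plus strand) stood at 30.3, 37.8 and 48.8 FPKM in HKO, against 42.8, 39.9 and 44.9 FPKM in Flox. In both genes HKO 1 was lowest and HKO 3 highest, so the HKO libraries spread more widely (SD 10.4 and 9.32 FPKM) than the Flox libraries (1.08 and 2.54). The ratio of Abcg5 to Abcg8 stayed between 0.960 and 1.04 in the 6 libraries, at 1.02 ± 0.0241 in HKO and 0.987 ± 0.0383 in Flox (SD, n = 3 each). The deposited spans of both genes overlap, with 3.02% of the exonic bases of Abcg5 and 2.19% of those of Abcg8 shared on opposite strands, and the kit did not mark strand. Log2 differences were -0.11 (adjusted p = 0.871) and -0.15 (adjusted p = 0.809) in limma, and 0.073 and 0.016 without HKO 1. The median over the 5 tested G members was -0.11, with 2 higher and 3 lower, and with 1 library left out it ran from -0.30 (without HKO 3) to 0.073 (without HKO 1). It was 0.068 under TPM, or -0.079 relative to that scaling's shift.

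On the blood side of the hepatocyte, 2 C members had lower means in HKO without passing. Abcc6, a pump tied to ATP release whose loss in humans causes pseudoxanthoma elasticum (ENSMUSG00000030834, chromosome 7, 45967555 to 46030302, minus strand), stood at 29.2, 28.3 and 28.1 FPKM in HKO, against 32.6, 35.1 and 33.1 FPKM in Flox. It was the member with every HKO library below every Flox library (7.21% of all genes lay so), with means of 28.5 ± 0.580 and 33.6 ± 1.33 FPKM in HKO and Flox. The log2 difference was -0.23 (SE 0.0931, unadjusted p = 0.0430, adjusted p = 0.648 in limma, exact permutation p = 0.1). It was -0.056 under TPM, or -0.20 relative to the shift, and below 0 under each of the 16 alternatives run.

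Abcc3, which returns conjugates to blood (chromosome 11, 94343295 to 94392997, minus strand), stood at 34.9, 23.4 and 24.8 FPKM in HKO, against 29.1, 39.5 and 35.0 FPKM in Flox. HKO 1 reached the Flox range, and HKO 2 and HKO 3 lay below it. The log2 difference was -0.32 (SE 0.183, adjusted p = 0.685 in limma), the lowest of the 34 members, and it was -0.21 without HKO 2 and -0.49 without HKO 1.

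**Figure D3:**
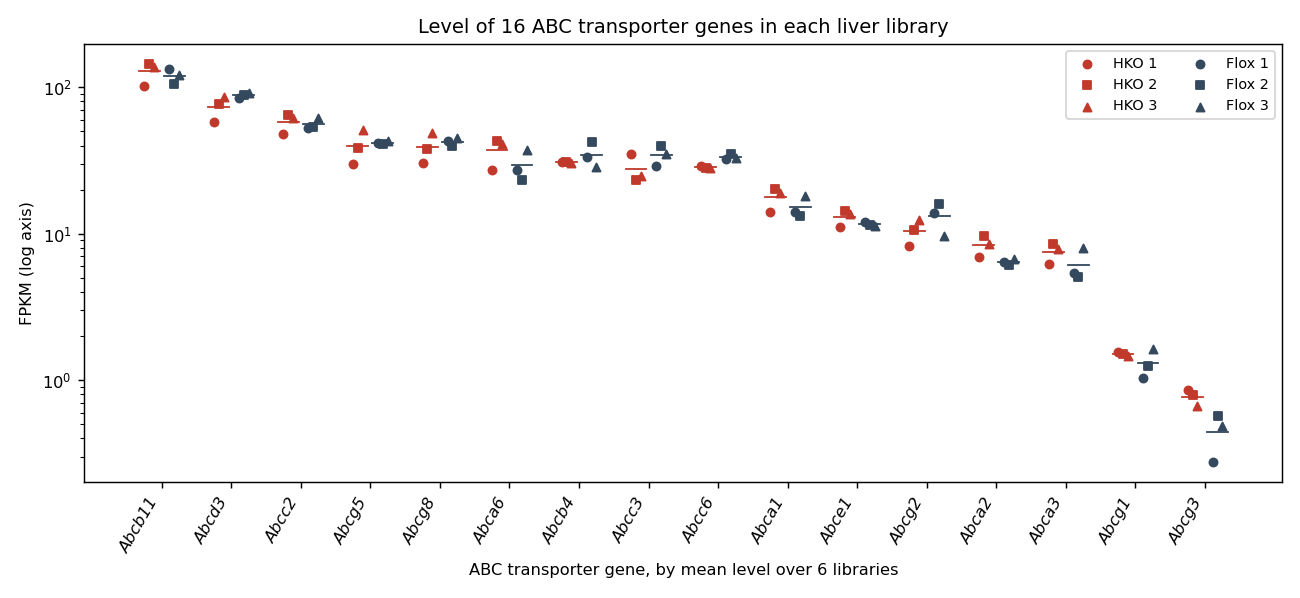
FPKM on a log axis (vertical) for 16 ABC genes (horizontal axis, by mean level), with a point for each HKO and Flox library and a line at each group's mean. Abcc6 lies lower and Abca2 and Abcg3 lie higher in all 3 HKO libraries than in the Flox libraries, and the groups overlap in the other 13 genes.

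Subfamily A, whose long members move lipids, leaned to one side. Of its 9 tested members 8 had a higher mean log2 value in HKO and 1 a lower one (11.1% lower, beside 51.2% of all genes). The smallest of these 8 differences, that of Abca5, was 0.0064. The subfamily median was 0.21 beside -0.01 for all genes, and 0 passed. The median was 0.08 without HKO 2 and 0.12 without Flox 2, 0.33 without Flox 3 and 0.36 without HKO 1. Under TPM it was 0.39, or 0.24 relative to that scaling's shift of all genes. Abca2, a lipid transporter of endosomes and lysosomes (ENSMUSG00000026944, chromosome 2, 25428703 to 25448540, plus strand), stood at 6.96, 9.62 and 8.52 FPKM in HKO, against 6.45, 6.07 and 6.69 FPKM in Flox. All HKO libraries lay above all Flox libraries, HKO 1 by the smallest margin, as in 6.06% of all genes. The log2 difference was 0.33 (SE 0.125, unadjusted p = 0.0323, adjusted p = 0.648 in limma, exact permutation p = 0.1), the highest of the 34 members. Over the alternatives it lay between 0.24 and 0.52, with adjusted p-values of 0.130 or more in limma. The value of 0.52 was under TPM, and it was 0.38 relative to the shift.

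Abca1 and Abca3 overlapped between the groups. Abca1, which loads cholesterol and phospholipid onto apolipoprotein A-I to form HDL (chromosome 4, 53030787 to 53159895, minus strand), stood at 14.1, 20.1 and 19.1 FPKM in HKO, against 14.2, 13.3 and 18.1 FPKM in Flox. Abca3, the phospholipid pump of lung surfactant bodies (chromosome 17, 24351950 to 24410201, plus strand), stood at 6.21, 8.56 and 7.84 FPKM in HKO, against 5.37, 5.08 and 7.95 FPKM in Flox. In both genes HKO 2, HKO 3 and Flox 3 were the 3 highest libraries, the same 3 that lay together on the first principal component, whose part in these differences was not tested. The log2 differences were 0.21 (adjusted p = 0.741) for Abca1 and 0.27 (adjusted p = 0.705) for Abca3 in limma. They were 0.36 and 0.39 without HKO 1, 0.33 and 0.45 without Flox 3, 0.12 and 0.17 without Flox 2, and 0.12 and 0.18 without HKO 2. Of the exonic bases of Abca3, 9.75% are shared with D330041H03Rik on the other strand.

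Abca6 belongs to a run of 5 neighbouring A genes on chromosome 11, all on the minus strand between 109932190 and 110337716, in the order Abca8b, Abca8a, Abca9, Abca6 and Abca5. Little is settled about their substrates. Abca6 stood at 27.4, 42.9 and 40.7 FPKM in HKO, against 27.2, 23.4 and 37.5 FPKM in Flox, with HKO 2, HKO 3 and Flox 3 again highest. Its log2 difference was 0.32 (SE 0.226, adjusted p = 0.719 in limma), and it was 0.51 without Flox 3, 0.52 without HKO 1, 0.18 without Flox 2 and 0.21 without HKO 2. Its neighbour Abca8a stood at 19.0, 31.4 and 17.2 FPKM in HKO, against 16.5, 13.6 and 22.9 FPKM in Flox, with HKO 2 alone far above the rest. Abca8b was lower throughout, at 7.75 to 11.8 FPKM in HKO and 8.38 to 9.51 FPKM in Flox, and it too was highest in HKO 2. Abca9 and Abca5 lay below 1 FPKM in every library, so levels in the run differed widely between neighbours. The longest coding sequences of Abca6, Abca8a, Abca8b and Abca9 encode 1620 to 1624 residues.

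**Figure D4:**
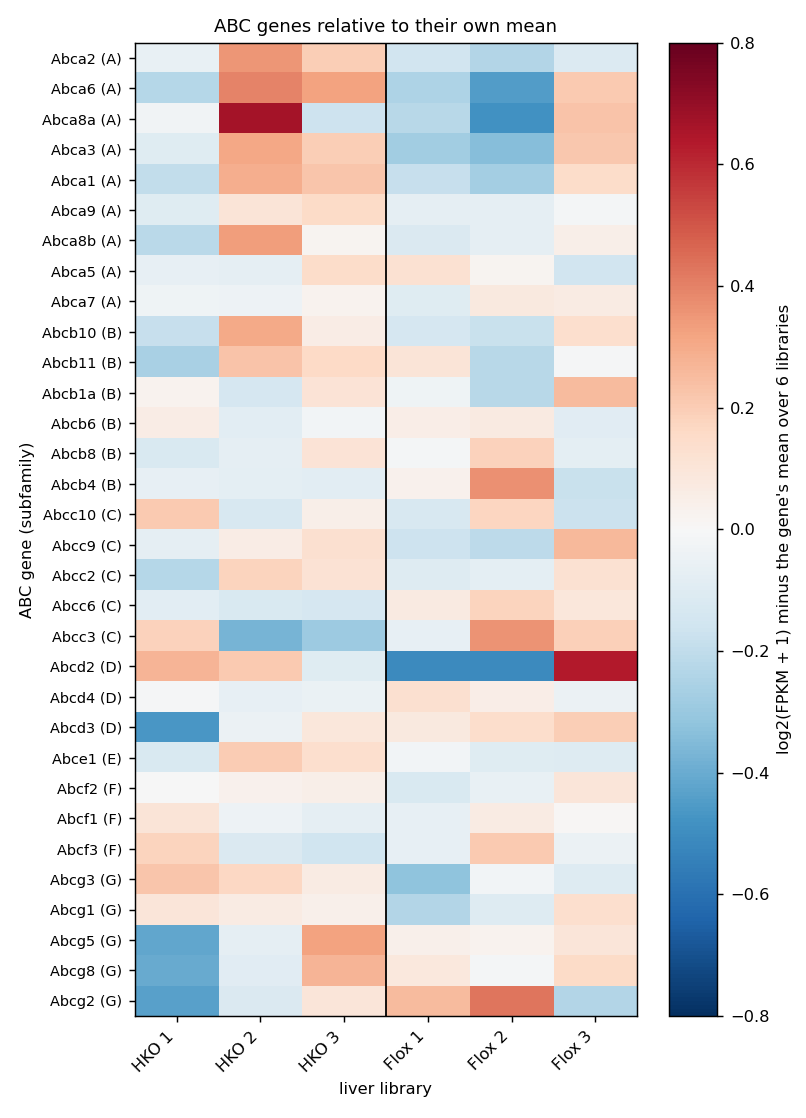
Log2(FPKM + 1) of 32 tested ABC genes (rows, with the subfamily in brackets) in each library (columns, HKO left of the line), as the difference from the gene's own mean over 6 libraries. Abca1, Abca3 and Abca6 are high in HKO 2, HKO 3 and Flox 3, and Abcg5, Abcg8 and Abcd3 are lowest in HKO 1.

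Markers of liver macrophages, which also use Abca1 and Abcg1 to unload cholesterol, were compared beside these A and G members. All 12 tested Kupffer cell markers were above 0 in the fit (median log2 difference 0.69, 0 passing, with none at 0 reads). Their summed level was 223 to 365 FPKM in HKO and 149 to 272 FPKM in Flox. All 4 tested markers of recruited macrophages of the 9 listed, Cd9, Clec7a, Lyz2 and Spp1, were likewise above 0 (median 0.43, 0 passing). Spp1, at 0.078, is also counted among the cholangiocyte markers. Of the 5 under the filter, Ccr2 averaged 0.293 FPKM in HKO and 0.348 FPKM in Flox, Ly6c2 0.420 FPKM in HKO and 0.658 FPKM in Flox, and the others lay below 0.2 FPKM in both groups. The sum over all 9, carried mostly by Lyz2 and Spp1, was 82.0 to 100.6 FPKM in HKO and 64.3 to 76.7 FPKM in Flox. Abcg1, which passes cholesterol to HDL (chromosome 17, 31057698 to 31115777, plus strand), stood at 1.57, 1.52 and 1.47 FPKM in HKO, against 1.04, 1.24 and 1.64 FPKM in Flox. Flox 3 lay above all HKO libraries, and the log2 difference was 0.13 (SE 0.117, adjusted p = 0.748 in limma), with 0.050 without Flox 1 and 0.24 without Flox 3. Abcg3, a rodent member with no human counterpart (ENSMUSG00000029299, chromosome 5, 104935057 to 104982718, minus strand), stood at 0.858, 0.793 and 0.669 FPKM in HKO (54, 47 and 44 reads), against 0.275, 0.569 and 0.486 FPKM in Flox (15, 30 and 29 reads). Its HKO libraries all lay above its Flox libraries, with a log2 difference of 0.30 (SE 0.114, unadjusted p = 0.0327, adjusted p = 0.648 in limma, exact permutation p = 0.1). With so few reads the pseudocount weighs on the size: the difference was 0.72 with a pseudocount of 0.1 and 0.84 with voom on reads. The part of the macrophage markers in these values was not tested.

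Peroxisomal members of subfamily D were led by Abcd3, which carries branched-chain acyl-CoA and bile acid precursors into peroxisomes (chromosome 3, 121758774 to 121815302, minus strand). It stood at 57.6, 77.5 and 85.3 FPKM in HKO, against 84.6, 88.1 and 91.9 FPKM in Flox. HKO 1 lay far below the rest, and HKO 3 just inside the Flox range. The log2 difference was -0.28 (SE 0.161, adjusted p = 0.686 in limma), and -0.12 without HKO 1. Abcd2, an importer of very long chain fatty acids, stood at 5.31, 5.03 and 3.89 FPKM in HKO, against 2.67, 2.67 and 7.10 FPKM in Flox, with Flox 3 above every other library. Abcd4, a cobalamin transporter of lysosomes, lay at 1.17 to 1.27 FPKM in HKO and 1.20 to 1.49 FPKM in Flox. Of the 4 D members, with the lysosomal Abcd4 included, 3 had a lower and 1 a higher mean log2 value in HKO, with a median of -0.10. It was 0.033 under TPM, or -0.11 once that scaling's overall shift is taken off.

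A peroxisomal list was made up of enzymes of the oxidation that follows import and of the biogenesis genes Pex3, Pex5, Pex11a and Pex19. Fitted values were lower in HKO in 11 of 11 tested, beside 51.2% of all genes, and 0 passed (median log2 difference -0.32). That count is from the main scaling only, and TPM moves the median of all genes by 0.15. The Pex genes were nearest to 0, at -0.15 to -0.05. Acaa1b, a peroxisomal thiolase, stood at 363, 301 and 370.0 FPKM in HKO, against 583, 741 and 554 FPKM in Flox (adjusted p = 0.580 in limma). Every HKO library lay below every Flox library for Acaa1b, as in 7.21% of all genes, and the lowest was HKO 2.

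Mitochondrial members of subfamily B overlapped between the groups. Abcb10, which acts beside haem synthesis, lay at 8.22 to 12.0 FPKM in HKO and 8.29 to 10.5 FPKM in Flox, and 10.3% of its exonic bases are shared with an antisense gene. Abcb8 lay at 6.84 to 8.22 FPKM in HKO and 7.09 to 8.71 FPKM in Flox. The porphyrin carrier Abcb6 lay at 0.440 to 0.594 FPKM in HKO and 0.437 to 0.608 FPKM in Flox, and its reads are uncertain because 55.2% of its exonic bases are shared with Gm29253 on the same strand. Of 11 iron-sulfur and haem genes 3 had higher and 8 lower means, with 0 passing and a median of -0.05.

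Subfamilies E and F, which lack membrane parts, overlapped between the groups. Abce1, which splits ribosomes after termination (chromosome 8, 79683462 to 79711740, minus strand), stood at 11.2, 14.3 and 13.6 FPKM in HKO, against 12.1, 11.4 and 11.3 FPKM in Flox. HKO 1 lay below all Flox libraries and the other HKO libraries above them, and the log2 difference was 0.15 (SE 0.113, adjusted p = 0.731 in limma), with 0.24 without HKO 1 and 0.082 without HKO 2. Abcf1, Abcf2 and Abcf3 lay between 10.7 and 15.9 FPKM in HKO and between 11.4 and 16.2 FPKM in Flox. Their fitted differences, -0.06 to 0.05, all had intervals within -0.37 and 0.29. Of 7 genes of ribosome recycling and stalling 6 were in the table, 5 with higher and 1 with a lower mean in HKO, and 0 passed.

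The remaining tested members were lowly expressed. Abcc9, a regulatory subunit of potassium channels, lay at 2.58 to 3.12 FPKM in HKO and 2.26 to 3.50 FPKM in Flox. Abcc10, Abca7, Abcb1a, Abca5 and Abca9 lay between 0.469 and 1.25 FPKM in HKO and between 0.442 and 1.19 FPKM in Flox. Abcb1a encodes a P-glycoprotein, the drug pump of many barriers. Its longest transcript aligned over 79.6% of its length to Abcb1b at 87.7% identity, below the 97% set for a near-identical copy, and 0 of the 50 members had such a copy over 80% of the longest transcript.

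The filter left out 16 members. Of these 3, Abcc8, Abca16 and Abcb5, had no read in any library, which allows up to 3 reads in each for counting error only. A further 13 had at least 1 read, and 6 of them had reads in all 6 libraries. Abcb9 lay nearest to the filter, with 77, 31 and 53 reads in HKO, against 39, 36 and 45 reads in Flox. Abcc5 had 75, 69 and 84 reads in HKO, against 47, 41 and 70 in Flox. The blood-side exporter Abcc4 had 27, 25 and 27 reads in HKO, against 11, 24 and 14 in Flox. Reads in this paragraph are not scaled by library size, so they do not compare the groups. As FPKM, Abcc4 stood at 0.238, 0.234 and 0.228 in HKO, against 0.112, 0.253 and 0.130 in Flox, and the groups overlapped. Abcc1 had 43, 21 and 26 reads in HKO and 20, 29 and 23 in Flox, and Abcb1b 11, 17 and 35 in HKO and 7, 18 and 9 in Flox. The 3 members of a second A run on chromosome 7, Abca14, Abca15 and Abca16, had 26, 1 and 0 reads over all libraries. The other members under the filter, Abcc12, Abca4, Abca17, Abcg4, Abca13 and Abca12, had 1 to 17 reads over all libraries.

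Coding length, which the symbol rule did not use, was greatest in subfamily A, then in C, and the ranges of B, D, F and G overlapped in part. The longest coding sequences encode 1620 to 5034 residues in A, 1325 to 1588 in C and 715 to 1321 in B. They encode 606 to 741 in D, 646 to 673 in G, 628 to 837 in F and 599 in E. FPKM divides by the gene length, 2569 bases (Abcf2) to 19737 bases (Abca13) here, which equalled the summed exons of GENCODE M21 in 47 of the 50 members.

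The highest and lowest libraries were counted over members. HKO 1 was the lowest library for 12 of the 34 members (35.3%, beside 17.7% of all genes tested), and HKO 2 the highest for 11 (32.4%, beside 19.5%). Flox 1 was the highest for 1 member (2.94%, beside 13.4%) and Flox 2 for 8 (23.5%, beside 23.7%).

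Regulators and targets known to accompany the family were read off the same fit. Over 11 lists with 89 tested genes, 0 passed, 35 had higher and 54 lower fitted values, and 9 (10.1%) had an unadjusted p under 0.05, beside 7.62% of all genes. Among the 12 receptors and factors that control ABC genes 7 were higher and 5 lower. Rxra, the shared partner of LXR, FXR, PXR and CAR, stood at 116, 93.3 and 102 FPKM in HKO, against 74.0, 79.98 and 92.0 FPKM in Flox. The log2 difference of Rxra was 0.34 (adjusted p = 0.648 in limma). All HKO libraries lay above all Flox libraries, as in 6.06% of all genes, by a narrow margin. Ahr, the dioxin receptor, stood at 9.20, 10.03 and 9.35 FPKM in HKO, against 5.55, 4.87 and 10.7 FPKM in Flox.

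Targets of LXR outside the family were 4 higher and 4 lower (median 0.02), and those of FXR 3 higher and 5 lower (median -0.14). The lists pool genes whichever way a receptor moves them, so such counts give no reading of receptor activity. Lpcat3, a phospholipid acyltransferase and LXR target, stood at 22.2, 23.9 and 29.2 FPKM in HKO, against 32.8, 34.6 and 30.5 FPKM in Flox (adjusted p = 0.648 in limma). Targets of PXR and CAR were 2 higher and 5 lower (median -0.14). Targets of NRF2 were 3 higher and 6 lower (median -0.24), with the quinone reductase gene Nqo1 at 2.87, 2.51 and 3.51 FPKM in HKO, against 5.45, 4.12 and 4.87 FPKM in Flox (adjusted p = 0.580 in limma). Partners of HDL formation were 3 higher and 7 lower (median -0.15). Other exporters and flippases were 6 higher and 1 lower (median 0.16). Tap1 and Tap2, the antigen peptide pumps outside the symbol pattern, were both lower in the fit (median -0.17), and Cftr lay under the filter.

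Markers of other cell types did not pass in any list. Sinusoidal endothelial markers were 6 higher and 2 lower, stellate cell markers 4 and 4, cholangiocyte markers 4 and 1, B and plasma cell markers 4 and 0, and T and NK cell markers 2 and 0. Neutrophil markers were 0 higher and 2 lower, with Ly6g at 0 reads, and hepatocyte markers 3 higher and 5 lower. All 5 erythroid markers were lower in the fit (median -0.72), at 136 to 270 summed FPKM in HKO and 295 to 333 in Flox, and their part in the ABC values was not tested.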

How the data were processed

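RNA of 6 mouse liver samples was sequenced from NEBNext Ultra libraries made with 1.3 µg of total RNA, per the labels' protocols. The authors deposited FPKM per gene and library, with gene symbol, biotype, position and a gene length in bases used here as another deposited column. The submitters' processing notes name GRCm38 and mm10, with no aligner, counter or annotation release in the sources used here. Multiplied by gene length, 100% of values above 0 fell on whole reads (within 0.02 reads), which gave read numbers and library totals. The size behind the FPKM followed median-ratio factors, so the FPKM were already scaled to level the typical gene.

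Genes reaching 0.5 FPKM in 3 or more libraries were fitted as log2(FPKM + 1) in limma 3.58.1 (R 4.3.3, trend, robust, statmod 1.5.0), two-sided, with Benjamini-Hochberg adjustment over all 11856 genes and a threshold of 0.05. Differences are HKO minus Flox and are understated for low genes. An exact permutation test of 3 against 3 cannot go below 0.1. On simulated data the fit recovered 90 of 97 genes changed 2-fold and 97 of 98 changed 4-fold, with 19 false calls beside these. The false calls were a larger share of all calls than the threshold of 0.05 aims at. The simulation gave every gene the same scatter, so it tells neither the power nor the rate of false calls in these livers. Overlaps came from GENCODE M21 and copies from blastn 2.17.0 on its transcripts. Promoter windows came from RefSeq.

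Named members are those with a known liver role, the 10 with the smallest p and the 6 most abundant, and others by level or reads. A few results are not reported here. Abca8a, Abca8b, Abcd2 and further members given as levels fall outside this rule and were chosen after their values were seen. Rxra, Ahr, Lpcat3, Nqo1 and Acaa1b are shown because their unadjusted p was among the smallest of their list, so they do not stand for it. The members, the 11 pathway lists and the 10 marker lists were chosen with earlier results of these data known. Alternatives were another pseudocount, filters, scalings, voom, array weights, a replicate block and leaving out each library.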

Additional observations from a re-analysis of the deposited data

How the results depend on the processing

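No member passed under any alternative run that gives a test (smallest adjusted p 0.130, Abca2 with array weights). Over all genes the count lower in HKO was 1. It was 0 both for the replicate block and without the filter, 2 at a mean of at least 5 FPKM, 3 with voom and 3 with array weights. With 1 library left out it ran from 0 to 12, and the count higher in HKO from 0 to 1, both highest without HKO 1. The median over members was 0.02, and it was 0.19 under TPM (0.05 relative to its shift, an alternative chosen after seeing the data).

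For the 16 members followed by name 243 of 254 values kept their direction, and 11 of the 16 members did so throughout. Under TPM Abcb4, Abcg5 and Abcg8 turned to 0.025, 0.068 and 0.027, but relative to that scaling's shift of all genes they were -0.12, -0.079 and -0.12, in their main direction. Under quantile normalization Abcg5 turned to 0.00021. With 1 library left out Abcb11 ran from -0.0055 to 0.24, Abcc2 from -0.037 to 0.17, Abcg5 from -0.30 to 0.073 and Abcg8 from -0.32 to 0.016. The cause was not tested.

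No label says that replicate numbers pair the samples. Deviations of same-numbered libraries correlated at 0.021, 0.015 and 0.070. HKO 1 and HKO 2 correlated best with another number, and HKO 3 with its own. The replicate block gave 0 calls over all genes, against 1 without it. With 3 libraries in each group these values cannot exclude a pairing. Read numbers limit what can be said of members below 1 FPKM.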
